A study of Mus musculus with 16 samples.

Results

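Ciliary transport and centrosome genes were taken here as the mouse genes whose symbol on the array platform begins with Ift, Bbs or Cep followed by a number. The rule found 59 genes among the 19505 named genes measured: 14 Ift genes, 8 Bbs genes and 37 Cep genes. Each of the 59 had 1 probe set. The same pathways hold genes under other names, such as Ttc8 or Kif3a, and these were followed as separate lists.

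Affymetrix arrays measured the RNA of 16 sorted samples of olfactory mucosa, called libraries here. All mice carried the S100a5-tauGFP reporter allele on a C57BL/6 background, were of both sexes and were 7 to 12 weeks old. Each of 24 mice spent 40 h alone in a clean air chamber, and from 26 h on received pulses of 10 s every 20 min. The pulses held isoamyl acetate mixed with whiskey lactone (odor) or filtered air (vehicle). Mice were pooled by 3 before sorting on GFP, which gave 8 pools, 4 per treatment, and each array took 50 to 100 ng of total RNA as its starting material. There were 4 libraries in each of 4 groups: odor titled GFP+, odor titled GFP-, vehicle titled GFP+ and vehicle titled GFP-. A library is thus a pool of mice, and the libraries of a treatment that share a number came from the same mice. The reporter follows S100a5, which encodes a calcium-binding protein and which activity raises in olfactory sensory neurons, so that sorting was meant to part recently active neurons from the rest.

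The labels limit what a fraction's name can mean. Title and tag contradict each other on the fraction in 16 of 16 samples; the groups here follow the title, hence the word "titled" in their names. Should the tags hold instead, each fraction difference below has the opposite sign. In odor pools the S100a5 signal itself was the lower one in titled GFP+, by a log2 difference of -1.16 ± 0.20 (SE, limma adjusted p = 0.000588) without vehicle pool 3, and by -1.16 ± 0.36 (adjusted p = 0.0625) on all 16 arrays. Both libraries of vehicle pool 3 ran against the other 3 vehicle pools. S100a5 there was 16.37 titled GFP+, against 14.59 to 15.47 in the other vehicle libraries titled GFP+, and 14.99 titled GFP-, against 16.27 to 16.44 in the others titled GFP-. Fits were made with that pool (16 arrays) and without it (14 arrays). A difference within odor pools is the same in both fits, and only its SE and p change; vehicle values move, and the main ones are given both ways. The deposited values are on a log2 scale that ran from 1.69 to 19.4, wider than a scanner's own range, so differences are given on that scale and not as folds. Library medians lay between 6.13 and 6.45. For negative control probe sets the median was 5.46 and the 95th percentile 9.79, which serve below as marks of low and clear signal. Probe sets differ in response, so a level places a gene against the controls and not against another gene.

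Olfactory sensory neurons carry a tuft of cilia that hold the odorant receptors and the channels of odor transduction. Intraflagellar transport moves cargo along these cilia on trains of the IFT-B complex, which kinesin carries outward, and of the IFT-A complex, which works with dynein on the way back. The BBSome, a coat-like complex named after Bardet-Biedl syndrome, rides on these trains and sorts membrane proteins, and loss of its subunits impairs smell in mice and people. Cilia grow from basal bodies, which are centrioles docked at the membrane by distal appendages and sealed by the transition zone. Most Cep proteins build or link centrioles, and a few serve cell division.

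Every Ift gene lay above the mark of clear signal in each library, as did the BBSome genes other than Bbs5, which was below it in 4 libraries, while Cep genes ranged from clear signal to background. The mean over 16 libraries lay above the 95th percentile of the negative controls for 37 of 59 members (62.7%), against 29.6% of all genes. This held for 14 of 14 Ift genes, 6 of 8 Bbs genes and 17 of 37 Cep genes. Well above that mark were Ift74 (14.15 ± 0.21) and Ift80 (13.82 ± 0.31) of IFT-B, and nearer to it was Ift140 of IFT-A (11.12 ± 0.29; SD over 16 libraries, here and in the next 3 sentences). The BBSome subunits Bbs9 (14.61 ± 0.23) and Bbs4 (14.21 ± 0.25) were also far above it. Among Cep genes the same was true of Cep126 (14.21 ± 0.17), a centrosomal protein, Cep170 (12.97 ± 0.31), a protein of subdistal appendages, and Cep290 (12.20 ± 0.31), a gatekeeper of the transition zone. Bbs12 (4.18 ± 0.28), Cep85l (4.31 ± 0.43), Cep55 (4.30 ± 0.46) and Cep295nl (3.93 ± 0.28) lay under the median of the negative controls, so their differences are differences near background.

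**Figure D1:**
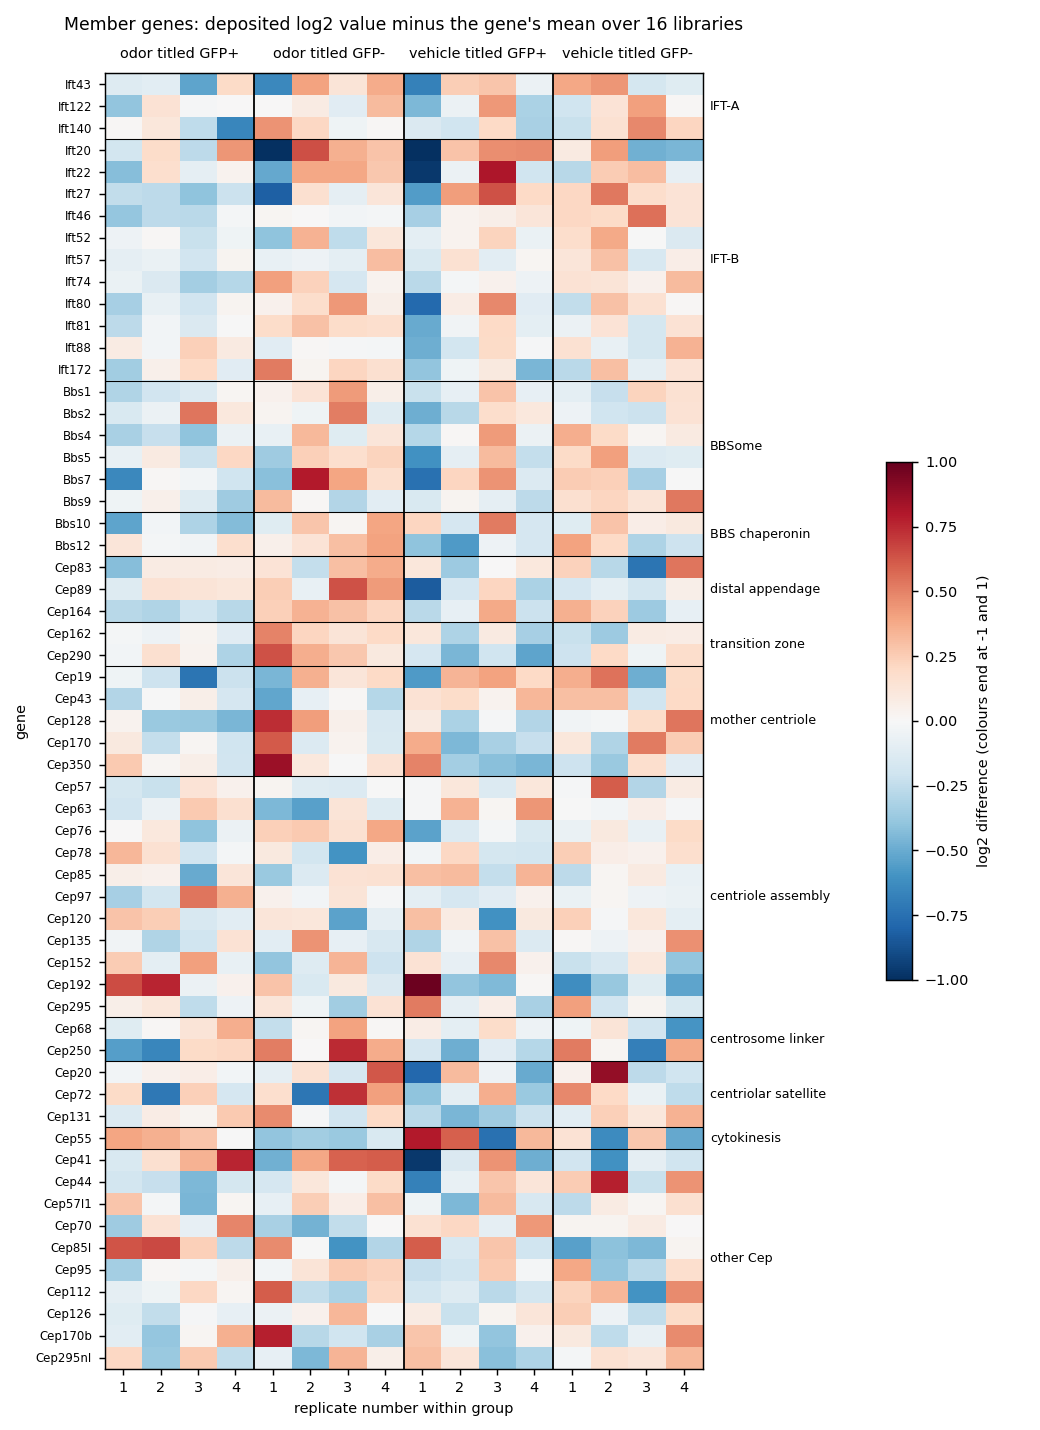
Deposited log2 value of each of the 59 members in each library, minus the gene's mean over 16 libraries, with genes in rows by role and libraries in columns by group (replicates 1 to 4). Red is above and blue below the gene's mean, and colours end at -1 and 1. Most cells are pale; odor replicate 1 titled GFP- and vehicle replicate 1 titled GFP+ hold many of the dark ones, and vehicle replicate 3 titled GFP+ is red for most Ift and Bbs genes.

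The members varied between libraries nearly as much as genes in general, and genes of like level were not compared. Their SD over 16 libraries ran from 0.15 to 0.56 with a median of 0.27, against a median of 0.30 over all genes. Ift57 (0.15), Cep126 (0.17) and Ift88 (0.20) varied least. Ift20 (0.56), which links the Golgi to the cilium, Cep41 (0.50), a ciliopathy protein tied to tubulin glutamylation, and Cep192 (0.47), a scaffold that starts centriole duplication, varied most. For Ift20 this spread came mostly from 2 libraries, odor replicate 1 titled GFP- at 12.30 and vehicle replicate 1 titled GFP+ at 12.50; the other 14 lay between 13.05 and 14.17. In odor replicate 1 titled GFP-, the large centriolar proteins Cep170 (13.58) and Cep350 (12.82) were at their highest over all libraries.

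Promoter windows from RefSeq (build GRCm38.p6) reach from 250 bases before to 50 after a gene's start and were at hand for 51 of the 59 members. Cep120, Cep192, Cep295nl, Cep350, Cep76, Ift122, Ift80 and Ift81 had none. Many ciliary genes carry an X-box, a palindromic element bound by RFX transcription factors. The X-box was searched on both strands as 2 sides of 6 letters with 2 free bases between them. With the sides GTNNCC and GGNAAC, 9 of 51 members (17.6%) held a match, against 1.49% of 27025 genes with a window: Bbs1, Bbs4, Bbs7, Cep112, Cep19, Cep44, Cep83, Ift22 and Ift57. This spelling was picked after counts for 10 patterns had been seen. The looser sides GTNNCC and GGNNAC matched the same 9 members and 2.16% of genes. Stricter sides matched fewer members. GTTNCC with NGNAAC matched 3 members (0.936% of genes), and 2 members were matched by GTTGCC with GGNAAC (0.355%), GTTNCC with GGNAAC (0.529%) and GTTGCC with NGNAAC (0.503%). With A as the first free base, GTTNCC and GGNAAC also matched 2 members (0.389%). These spellings overlap one another. The short core GTTGCC was in 16 members (31.4%, against 14.1% of genes), and CCAAT in 27 members (52.9%, against 41.1%). The cell cycle element CHR, spelled TTTGAA, was in 9 members (17.6%, against 20.2% of genes), among them Cep164 and Cep55. A match is a description of letters only, and no match says only that these letters are not in the window.

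The windows of 30 bases printed here show X-box matches upstream of the start for 5 of these members, from each of the 3 families. They also show the CHR letters of Cep164 and Cep55, which return in the fraction results. Not printed are the X-box matches of Cep83, at -14, and of Bbs1, Bbs4 and Cep19, which begin after the start at 2, 24 and 23. Capitals mark the matched letters, 5′ to 3′ on the gene's strand. Bbs7 is at chr3:36613489-36613518 on the minus strand with its first matched base at -121 from the start, and Cep112 at chr11:108425174-108425203 on the plus strand at -84. Cep44 is at chr8:56550661-56550690 on the minus strand at -116, and Ift57 at chr16:49699199-49699228 on the plus strand at -87. Ift22, a gene on the plus strand, holds 2 matches, at chr5:136908079-136908108 (-63) and chr5:136908109-136908138 (-33). For Ift57 and for the Ift22 match at -63 the X-box spelling is read on the strand opposite to the gene. Cep164 is at chr9:45828774-45828803 on the minus strand at -128. Cep55 is at chr19:38054996-38055025 on the plus strand at 25, after the start, with the element read on the other strand.
Bbs7: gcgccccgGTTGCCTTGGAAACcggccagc
Cep112: cccggagcGTCGCCATGGCAACagagttga
Cep44: ttggtacgGTAGCCTTGGGAACctttcagt
Ift57: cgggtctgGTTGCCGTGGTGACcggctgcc
Ift22 first: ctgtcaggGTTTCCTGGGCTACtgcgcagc
Ift22 second: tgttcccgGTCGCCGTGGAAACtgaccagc
Cep164: cttattcactatTTTGAActacaactttca
Cep55: acagccgcgggaTTCAAActcccggaagcg

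The comparison of fractions asks whether cilium and centrosome genes differ between the sorted fractions of the same mice. In odor pools, Cep164, the distal appendage protein that docks the mother centriole and starts cilium growth, was lower in the fraction titled GFP+, and Cep55, a midbody protein of abscission, was higher. In vehicle pools Cep55 was again higher, and Cep44, a centriole protein of centriole-to-centrosome conversion, was lower. These calls were made without vehicle pool 3. With all 16 arrays, 0 of 59 members passed in limma in either treatment (9 in odor and 4 in vehicle had an unadjusted p under 0.05). In bulk RNA, fewer cells of a type and less RNA per cell cannot be told apart.

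Read against all genes, the count of calls was low. Without vehicle pool 3, 2 of 59 members passed in odor, where 13.2% of all genes passed (8.59% higher, 4.59% lower), and 2 of 59 passed in vehicle, where 11.2% did (7.86% higher, 3.32% lower). Members with an unadjusted limma p under 0.05 numbered 11 in odor and 13 in vehicle. Shares of all genes at an unadjusted p were not counted for any comparison. They cannot be below the adjusted shares, so these counts show no excess among members. On all 16 arrays the share of all genes called was 6.97% in odor (4.57% higher, 2.39% lower) and 0.0% in vehicle. That odor share, 1359 genes, was not stable: 2 genes passed with the pool of mice as a block, and 2 or 3 passed without any 1 of 7 odor libraries, the exception being replicate 4 titled GFP+ (1212 genes without it). More members were below 0 than above it: 43 of 59 in odor and 48 of 59 in vehicle without pool 3, where 62.5% and 63.7% of all genes were. The members' median difference was -0.14 in odor and -0.21 in vehicle, against -0.08 and -0.10 over all genes. With pool 3, 46 of 59 were below 0 in vehicle (59.8% of all genes), and the median shrank to -0.10, against -0.06 over all genes. With arrays centred on genes of clear signal, a scaling chosen after seeing the data, 36 of 59 members were below 0 in odor (53.4% of all genes), with a median of -0.07 against -0.02.

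Cep164 had the smallest p among members in odor. Its mean over 16 libraries (7.26) lay above the median of the negative controls but under the mark of clear signal (9.79). Its log2 values were 6.99, 6.96, 7.07 and 6.99 in odor libraries 1 to 4 titled GFP+, against 7.50, 7.61, 7.56 and 7.48 in those titled GFP-. The groups did not overlap, and each odor pool showed nearly the same gap. Titled GFP+ averaged 7.00 ± 0.05 and titled GFP- averaged 7.54 ± 0.06 (SD, n = 4 libraries each), a difference of -0.54 ± 0.13 (SE, limma adjusted p = 0.00841). With all 16 arrays the same difference had an SE of 0.16 and missed the threshold (adjusted p = 0.0621); leaving out either library of that pool alone gave adjusted p = 0.0249 (its titled GFP+ library) or 0.0328 (its titled GFP- library). In vehicle Cep164 was 6.99, 7.18, 7.64 and 7.05 in replicates 1 to 4 titled GFP+, against 7.62, 7.50, 6.90 and 7.18 in those titled GFP-. Replicate 3 had the order reversed, and without it the difference was -0.36 ± 0.15 (SE, limma adjusted p = 0.153).

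Cep55 went the other way, at levels under the negative control median. It was 4.69, 4.66, 4.58 and 4.30 in odor libraries 1 to 4 titled GFP+, against 3.91, 3.95, 3.93 and 4.15 in those titled GFP-. Vehicle values were 5.10, 4.90, 3.55 and 4.62 titled GFP+, against 4.44, 3.68, 4.57 and 3.79 titled GFP-. The odor groups did not overlap, and the vehicle groups overlapped only through pool 3. Without that pool the difference was 0.57 ± 0.18 in odor and 0.90 ± 0.20 in vehicle (SE, limma adjusted p = 0.0437 and 0.00705), and with all 16 arrays it was 0.57 ± 0.28 and 0.42 ± 0.28 (adjusted p = 0.253 and 0.653). The odor call was lost without any of 8 single libraries: odor replicate 1, 2 or 3 titled GFP+, odor replicate 1, 2, 3 or 4 titled GFP-, or vehicle replicate 2 titled GFP+ (adjusted p from 0.0523 to 0.120).

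Cep44 passed in vehicle. Its mean over 16 libraries (7.87) also lay between the median of the negative controls and the mark of clear signal. Its values were 7.20, 7.80, 8.15 and 7.998 in vehicle replicates 1 to 4 titled GFP+, against 8.13, 8.65, 7.65 and 8.32 in those titled GFP-. Outside pool 3 the groups did not overlap, and vehicle replicate 1 titled GFP+ was the lowest library of all. The difference without pool 3 was -0.70 ± 0.21 (SE, limma adjusted p = 0.0378), and with it -0.40 ± 0.22 (adjusted p = 0.566). The call was lost without odor replicate 2 titled GFP+, without vehicle replicate 1 or 2 titled GFP+, or without vehicle replicate 2 or 4 titled GFP- (adjusted p from 0.0502 to 0.196). Without vehicle replicate 1 titled GFP+ the difference was -0.47. In odor Cep44 was 7.69, 7.65, 7.42 and 7.70 titled GFP+, against 7.71, 7.99, 7.86 and 8.06 titled GFP-, a difference of -0.29 ± 0.18 (SE, adjusted p = 0.362) with groups that did not overlap.

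**Figure D2:**
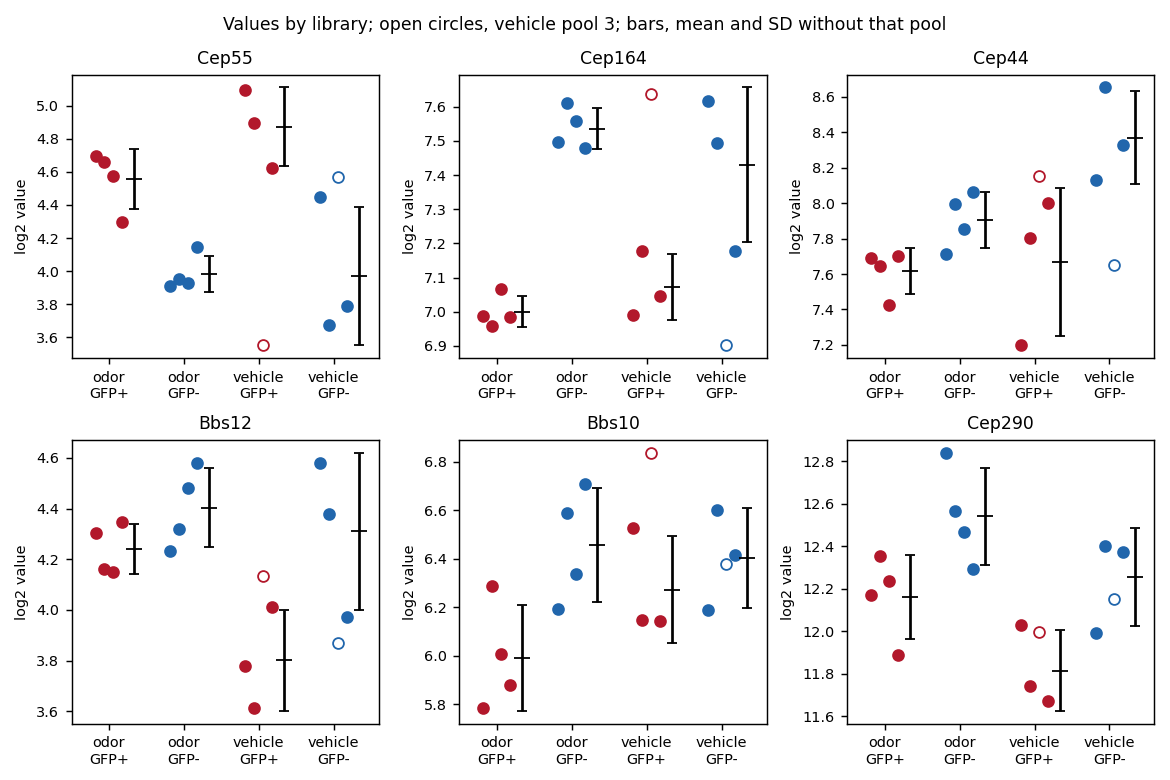
Deposited log2 values by library for Cep55, Cep164, Cep44, Bbs12, Bbs10 and Cep290, with the 4 groups from left to right as odor titled GFP+, odor titled GFP-, vehicle titled GFP+ and vehicle titled GFP-. Open circles are vehicle pool 3, bars are mean and SD without it, and axes start above 0 and differ between panels. For Cep55, Cep164 and Cep44 the open circles lie beyond all filled circles of their own group, toward the other fraction.

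Intraflagellar transport genes lay below 0 nearly throughout, by differences that did not pass. Of 14 Ift genes 0 passed in either treatment, on 16 or on 14 arrays. Without vehicle pool 3, 12 of 14 were below 0 in odor (median -0.21) and 14 of 14 in vehicle (median -0.28), from -0.40 to -0.10. With that pool 13 of 14 were below 0 in vehicle, with a median of -0.17. The 3 IFT-A genes had medians of -0.21 in odor and -0.28 in vehicle without the pool, and the 11 IFT-B genes -0.21 and -0.29; with the pool the vehicle medians were -0.19 and -0.14. Ift74, which with Ift81 binds tubulin cargo, was 14.08, 14.002, 13.81 and 13.86 in odor replicates titled GFP+, against 14.55, 14.37, 13.98 and 14.18 in those titled GFP-. The groups overlapped in part, and the difference was -0.33 ± 0.14 (SE, limma adjusted p = 0.168). Ift81 did not overlap in odor, at 13.38 to 13.64 titled GFP+ against 13.81 to 13.93 titled GFP- (-0.32 ± 0.14, adjusted p = 0.161). Ift88, a core IFT-B subunit, was 0.13 ± 0.14 in odor and -0.37 ± 0.16 in vehicle (SE, adjusted p = 0.651 and 0.190), the vehicle value being -0.19 ± 0.15 with pool 3 (adjusted p = 0.724).

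Bardet-Biedl genes were mostly below 0 too. Of 8 Bbs genes 0 passed; 7 were below 0 in odor (median -0.24) and 8 in vehicle (median -0.36) without vehicle pool 3. With that pool the vehicle median was -0.12, with 7 of 8 below 0. Bbs10, a chaperonin-like protein that helps assemble the BBSome, had the smallest p of the family in odor. It was 5.79, 6.29, 6.01 and 5.88 in odor replicates titled GFP+, against 6.19, 6.59, 6.34 and 6.71 in those titled GFP-. One library, replicate 2 titled GFP+, overlapped the other group, and the difference was -0.47 ± 0.17 (SE, limma adjusted p = 0.0851). Bbs12, another such chaperonin-like protein, had a difference of -0.51 ± 0.18 in vehicle (adjusted p = 0.0893), at levels under the negative control median, and of -0.32 ± 0.17 with pool 3 (adjusted p = 0.553). Bbs9 and Bbs4 were below 0 in vehicle without overlap (-0.43 ± 0.18 and -0.33 ± 0.17, adjusted p = 0.171 and 0.270); with pool 3 they were -0.38 ± 0.15 and -0.14 ± 0.16 (adjusted p = 0.478 and 0.803). Bbs7, a BBSome subunit with an X-box printed above, was -0.45 ± 0.25 in odor and -0.39 ± 0.29 in vehicle (SE, adjusted p = 0.306 and 0.485), and -0.10 ± 0.28 in vehicle with pool 3 (adjusted p = 0.936).

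Cep genes are given by role, with roles assigned by hand and no test between roles. The 3 distal appendage genes were below 0 in odor (median -0.24, with Cep164 the 1 call) and in vehicle without pool 3 (median -0.36); with that pool 2 of 3 were below 0 in vehicle and the median was -0.09. The 2 transition zone genes had medians of -0.34 in odor and -0.22 in vehicle, and of -0.19 in vehicle with pool 3. Cep290, needed in mice for olfactory G proteins to reach the cilium, was -0.38 ± 0.16 in odor and -0.44 ± 0.19 in vehicle (SE, limma adjusted p = 0.164 and 0.177), and Cep162 was -0.30 ± 0.15 and -0.01 ± 0.17 (adjusted p = 0.233 and 0.984). The 11 centriole assembly genes had medians of 0.06 and 0.01 and 0 calls, with a vehicle median of -0.04 with pool 3, and in odor they ranged from -0.35 to 0.33, which overlaps the distal appendage genes at -0.54 to -0.19. Among them Cep152 and Cep63, which recruit the kinase that starts centriole duplication, were above 0 in both treatments (Cep152 0.22 ± 0.17 and 0.29 ± 0.20, Cep63 0.29 ± 0.17 and 0.27 ± 0.20, SE, adjusted p from 0.333 to 0.492). Cep76, a brake on centriole duplication, was -0.35 ± 0.15 and -0.35 ± 0.17 (adjusted p = 0.157 and 0.249). Over all 37 Cep genes the median was -0.06 in odor and -0.16 in vehicle, and -0.08 in vehicle with pool 3.

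Cep250, which ties the pair of centrioles together, had the lowest difference in odor. It was 8.76, 8.66, 9.51 and 9.53 in odor libraries 1 to 4 titled GFP+, against 9.83, 9.32, 10.06 and 9.69 in those titled GFP-. Each of the 4 pools was lower in titled GFP+, though the groups overlapped. The difference was -0.61 ± 0.22 (SE, limma adjusted p = 0.0933), and it passed with pools of mice as a block (adjusted p = 0.0313, without vehicle pool 3). In vehicle it was -0.62 ± 0.26 (adjusted p = 0.160). With pool 3 the adjusted p was 0.190 in odor (0.193 with the block), and the vehicle difference was -0.32 ± 0.26 (adjusted p = 0.728). Cep128, of subdistal appendages, was -0.56 ± 0.21 in odor (adjusted p = 0.103). The 3 centriolar satellite genes were below 0 in both treatments with 0 calls, with medians of -0.12 and -0.48 (-0.37 in vehicle with pool 3), and Cep131 among them was -0.48 ± 0.19 in vehicle (adjusted p = 0.146).

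**Figure D3:**
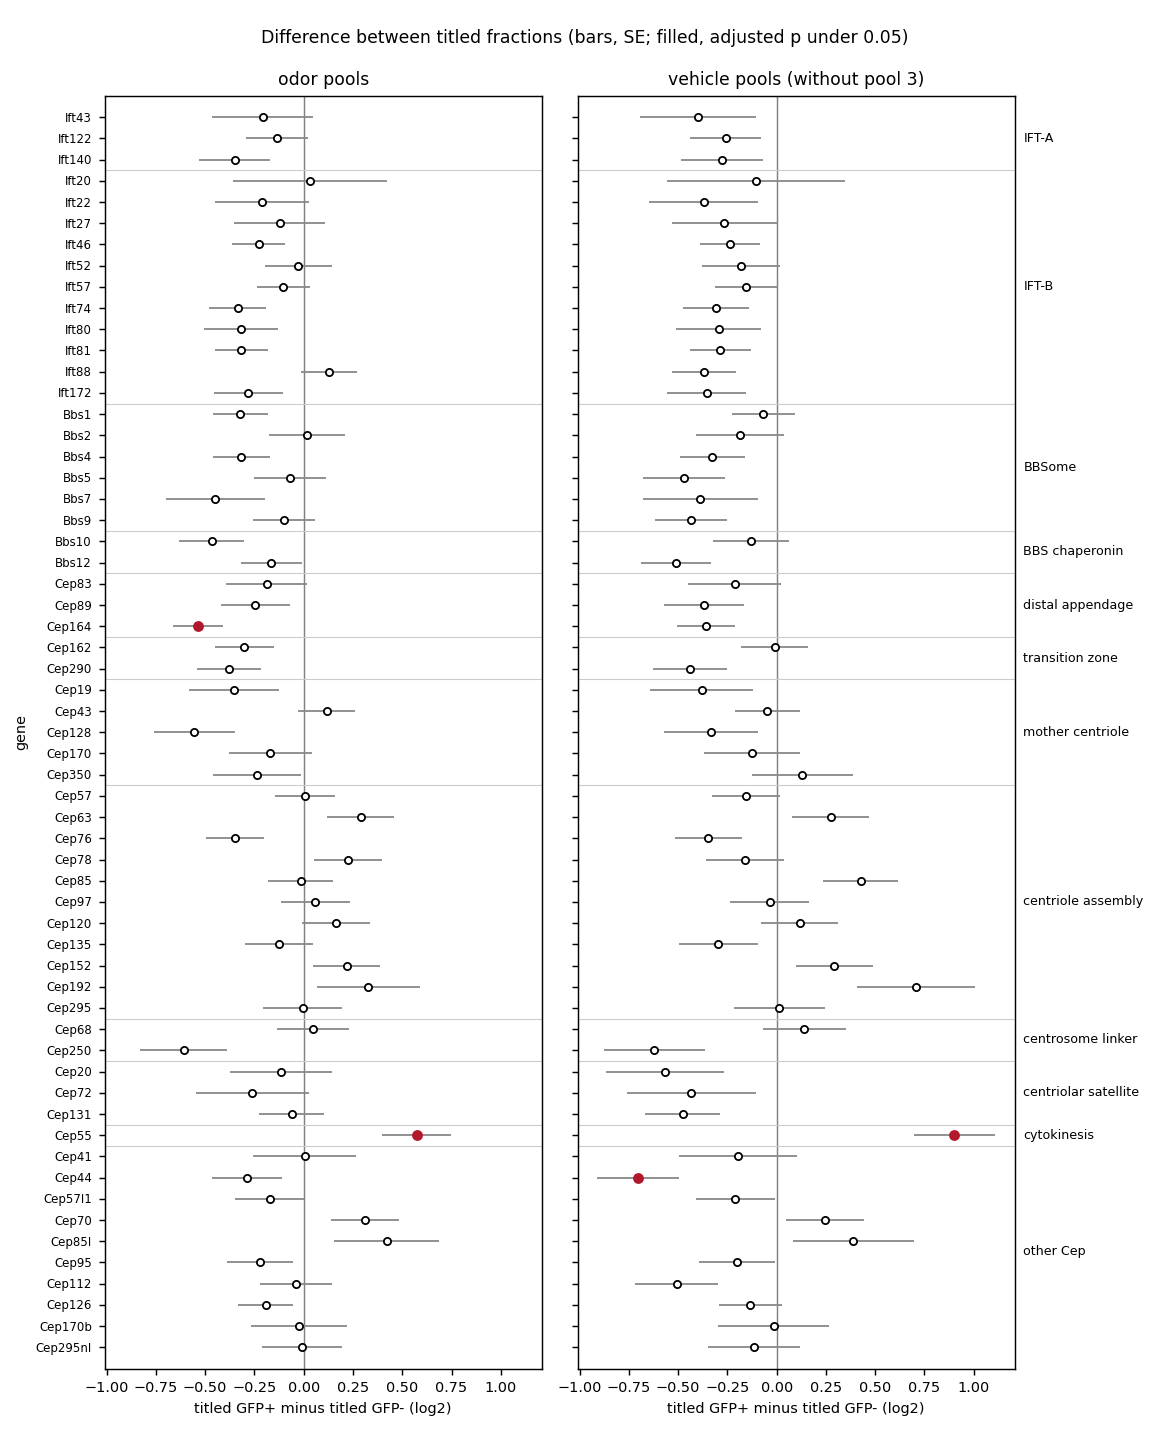
Log2 difference, titled GFP+ minus titled GFP-, for each of the 59 members in odor pools (left) and in vehicle pools without pool 3 (right), from the fit to 14 arrays; bars are SE and filled points have an adjusted p under 0.05. Most points for Ift and Bbs genes lie left of 0, Cep genes lie on both sides, and the 4 filled points are Cep164 and Cep55 on the left panel and Cep55 and Cep44 on the right.

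Groups that did not overlap were also counted. In odor, 7 of 59 members (11.9%) were lower in every titled GFP+ library than in every titled GFP- library (Bbs1, Cep162, Cep164, Cep44, Cep76, Ift80 and Ift81), against 7.6% of all genes, and 1 (1.69%), Cep55, was higher, against 8.9%. In vehicle without pool 3, 10 members (16.9%) were lower, against 14.9% of all genes, and 4 (6.78%) were higher (Cep152, Cep55, Cep70 and Cep85), against 12.6%. With pool 3, 3 members (5.08%) were lower (Bbs9, Cep131 and Ift46; 2.25% of all genes) and 0 higher (0.687%). Taken pool by pool without vehicle pool 3, 12 of 59 members (20.3%) were lower in titled GFP+ in 7 of 7 pools, against 10.5% of all genes. They were Bbs4, Bbs7, Cep126, Cep164, Cep250, Cep44, Cep76, Ift46, Ift57, Ift74, Ift80 and Ift81, of which 5 are IFT-B genes. Cep152 and Cep55 (3.39% of members) were higher in 7 of 7 pools, against 10.7% of all genes. With vehicle pool 3 included, Ift46 was lower in 8 of 8 pools (2.51% of all genes) and Cep152 higher in 8 of 8 (0.702%).

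The 9 members with the X-box spelling were all below 0 in odor (median -0.29, from -0.45 to -0.04), where 62.5% of all genes were. In vehicle without pool 3 they were again all below 0 (median -0.37), where 63.7% of all genes were. Among the other 42 members with a window, 28 were below 0 in odor (median -0.11) and 34 in vehicle without pool 3 (median -0.20). In odor these 42 ran from -0.61 to 0.57, a range that holds that of the 9. Other genes with the spelling were not compared. With pool 3 the vehicle medians lay close together, at -0.10 for the 9 (8 below 0) and -0.09 for the 42 (31 below 0). The RFX factors themselves differed among each other. Rfx4 was lower in titled GFP+ by a log2 difference of -1.68 ± 0.20 in odor and -1.27 ± 0.24 in vehicle (SE, limma adjusted p = 2.56e-05 and 0.00151, without vehicle pool 3). Rfx3 was -0.18 ± 0.16 and -0.03 ± 0.18, and Rfx2 -0.53 ± 0.21 and -0.49 ± 0.24 (SE, adjusted p from 0.116 to 0.945). With pool 3, Rfx4 was -0.72 ± 0.31 in vehicle (limma adjusted p = 0.489). A link between the RFX factors and the members' differences was not tested.

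Lists of the same pathways under other names gave few calls. The following counts are for odor and then vehicle, without vehicle pool 3. Of 9 further IFT genes 0 and 1 were lower, the 1 being Wdr35 of IFT-A (-0.56 ± 0.16, limma adjusted p = 0.0371 in vehicle). Of 6 further Bardet-Biedl genes 0 and 1 were lower, the 1 being Wdpcp, a planar polarity effector (-0.55 ± 0.17, adjusted p = 0.0441). Of 11 kinesin and dynein motor genes 0 and 0 passed, with 11 of 11 below 0 in each treatment (medians -0.22 and -0.31); with pool 3, 10 of 11 were below 0 in vehicle (median -0.15). Of 19 transition zone genes 0 and 0 passed, with 16 and 17 below 0, and 12 below 0 in vehicle with pool 3. Of 12 ciliary membrane and distal appendage genes 1 and 0 were lower, the 1 being Inpp5e, a phosphatase that sets ciliary lipids (-0.52 ± 0.16, limma adjusted p = 0.0436). On all 16 arrays none of these 5 lists held a call in either treatment (limma; at an unadjusted p under 0.05 the lists held 3, 1, 3, 1 and 2 genes in odor and 1, 0, 0, 0 and 1 in vehicle).

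Of 23 centriole assembly genes under other names 1 was higher in odor and 2 in vehicle, and 13 and 12 were below 0, with medians of -0.04 in both treatments. Stil, a scaffold of the new centriole, was 7.92, 7.99, 8.60 and 7.80 in odor replicates titled GFP+, against 5.27, 5.48, 4.84 and 5.35 in those titled GFP-. Those groups lay far apart, and the difference was 2.84 ± 0.27 in odor and 2.74 ± 0.31 in vehicle (SE, limma adjusted p = 1.86e-06 and 1.66e-05). Cenpj, which sets centriole length, was higher by 1.497 ± 0.27 in vehicle (adjusted p = 0.00116) and differed by 0.62 ± 0.23 in odor (adjusted p = 0.104). Of 12 genes of the multiciliated cell programme 1 was higher and 1, Rfx4, was lower in each treatment. The higher gene was Myb, a transcription factor also of dividing progenitors, by 4.38 ± 0.30 in odor and 4.36 ± 0.35 in vehicle (adjusted p = 5.85e-08 and 4.53e-07). On all 16 arrays Stil (adjusted p = 0.0317), Myb (adjusted p = 0.0286) and Rfx4 (adjusted p = 0.0286) passed in odor, and 0 genes of these lists in vehicle, where Stil was 1.28 ± 0.70 (adjusted p = 0.575), Cenpj 0.87 ± 0.36 (adjusted p = 0.478) and Myb 2.33 ± 0.95 (adjusted p = 0.478).

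Genes of cell division and of other cell types moved with the fractions. Of 21 cell cycle genes 16 were higher in titled GFP+ in odor and 16 in vehicle, without vehicle pool 3 (6 and 0 on all 16 arrays). Their mean level was 6.49 to 7.32 in odor libraries titled GFP+, against 5.41 to 5.75 in those titled GFP-, and in vehicle 7.24 to 7.98 titled GFP+, against 5.66 to 5.74 titled GFP-. Myeloid markers were higher for 10 of 10 genes in odor and 9 of 10 in vehicle, with mean levels of 10.7 to 13.0 in odor libraries titled GFP+, against 5.18 to 6.93 titled GFP-. In vehicle pool 3 the fractions were turned round for both lists, as the panels by library show. All 7 microvillar cell markers, 7 and 6 of 7 lymphoid markers and 6 and 5 of 10 sustentacular markers were higher, as were 4 of 10 immature neuron markers in each treatment. On all 16 arrays 8 of 10 myeloid, 7 of 7 microvillar, 4 of 7 lymphoid, 3 of 10 sustentacular and 4 of 10 immature neuron markers were higher in odor, and 0 of each list in vehicle.

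Markers of the cells that carry cilia moved less. Of 13 mature neuron markers 3 were lower in odor (Ano2, Cidea and Umodl1) and 2 in vehicle (Ano2 and Cidea), without vehicle pool 3. Mean levels were 15.57 to 15.69 in odor libraries titled GFP+, against 15.84 to 15.93 titled GFP-. In odor 13 of 13 markers were below 0, with a median of -0.25 and a lowest difference of -1.14. In vehicle 11 of 13 were below 0, with a median of -0.19 without pool 3 and -0.12 with it. Omp, their defining marker, was 18.44 to 18.62 titled GFP+ and 18.48 to 18.57 titled GFP- in odor, and these sorted cells thus carried it in every odor library. Of 14 respiratory ciliated cell markers 2 were lower in each treatment, Ccdc113 (-0.87 ± 0.23 in odor and -1.06 ± 0.27 in vehicle) with Hydin in odor (-0.69 ± 0.21) and Rsph1 in vehicle (-0.72 ± 0.20; limma adjusted p from 0.0149 to 0.0449). Their mean level was 8.86 to 9.19 in odor libraries titled GFP+, against 9.19 to 9.49 titled GFP-. On all 16 arrays 2 mature neuron markers and 0 respiratory ciliated markers were lower in odor, and 0 of each in vehicle. The part of these cell types in the members' differences was not tested.

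**Figure D4:**
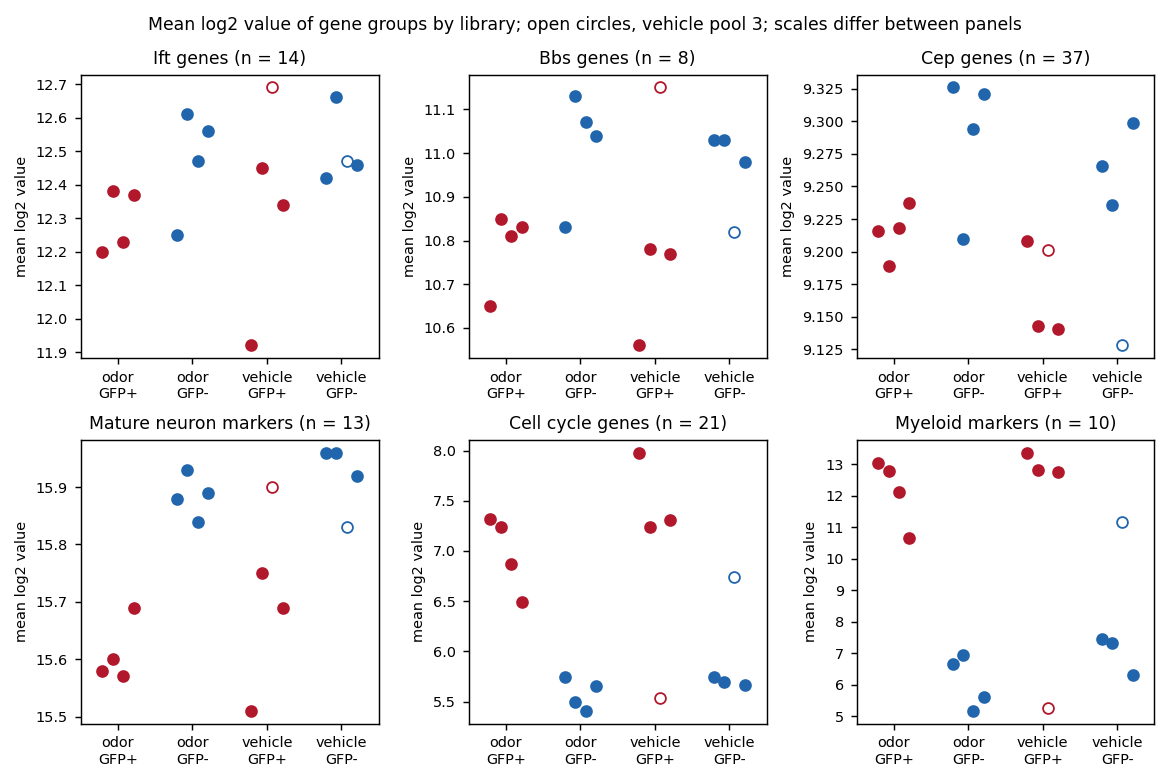
Mean log2 value of 6 gene groups in each library: 14 Ift, 8 Bbs and 37 Cep genes (top) and mature neuron markers, cell cycle genes and myeloid markers (bottom), with groups from left to right as odor titled GFP+, odor titled GFP-, vehicle titled GFP+ and vehicle titled GFP-. Axes differ between panels and do not start at 0; open circles are vehicle pool 3. Ift and Bbs means differ little between fractions, while myeloid means differ by several units.

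By library, the 14 Ift genes averaged 12.20, 12.38, 12.23 and 12.37 in the odor libraries titled GFP+ (replicates 1 to 4), against 12.25, 12.61, 12.47 and 12.56 in those titled GFP-. Vehicle means were 11.92, 12.45, 12.69 and 12.34 titled GFP+, against 12.42, 12.66, 12.47 and 12.46 titled GFP-. The groups overlapped in both treatments, but within each of the 4 odor pools and of vehicle pools 1, 2 and 4 the titled GFP+ library had the lower mean, and in vehicle pool 3 the higher one. The Bbs and Cep means had the same order in each of these pools. For Ift and for Bbs genes, vehicle replicate 1 titled GFP+ was the lowest library and vehicle replicate 3 titled GFP+ the highest. For Cep genes the lowest was vehicle replicate 3 titled GFP- (9.13) and the highest odor replicate 1 titled GFP- (9.33). The mean of the 8 Bbs genes was 10.65, 10.85, 10.81 and 10.83 in odor titled GFP+, against 10.83, 11.13, 11.07 and 11.04 in odor titled GFP-, so that 1 odor library titled GFP- reached into the other group.

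The comparison of treatments asks whether the odor mixture changed these genes within a fraction. None of the 59 members passed in either fraction (limma). In libraries titled GFP+, 0 passed on all 16 arrays, where 0.0% of all genes passed. On the 14 arrays 0 passed, where 0.0359% of all genes did (0.0308% higher). At an unadjusted limma p under 0.05 there were 3 and 5 members. In libraries titled GFP-, 0 passed on all 16 arrays, where 0.0103% of all genes passed. On the 14 arrays 0 passed, where 0.0256% of all genes did (0.0205% higher). At an unadjusted limma p under 0.05 there were 2 and 4 members. The shares of all genes are at an adjusted p, and those at an unadjusted p were not counted. The members' median difference was 0.06 in titled GFP+ and 0.01 in titled GFP- without pool 3, against -0.00 and -0.01 over all genes; with that pool it was 0.00 and 0.01. Each odor comparison shares libraries with both fraction comparisons, so these results are not independent.

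Cep41 had the largest difference between treatments. It was 9.17, 9.49, 9.67 and 10.09 in odor replicates titled GFP+, against 8.36, 9.18, 9.77 and 8.84 in vehicle replicates titled GFP+. In the libraries titled GFP- it was 8.84, 9.71, 9.91 and 9.93 with odor, against 9.14, 8.72, 9.23 and 9.12 with vehicle. Odor and vehicle libraries overlapped in both fractions. Without vehicle pool 3 the difference was 0.81 ± 0.28 in titled GFP+ and 0.61 ± 0.28 in titled GFP- (SE, limma adjusted p = 0.478 and 0.655). With it the values were 0.57 ± 0.30 and 0.55 ± 0.30 (adjusted p = 1.00 and 0.807).

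Cep43, a centriolar protein needed for cilium growth, was below 0 in both fractions. It was 9.73, 10.17, 10.26 and 9.96 in odor replicates titled GFP-, against 10.55, 10.55, 10.05 and 10.44 in vehicle replicates titled GFP-. Outside vehicle pool 3 the groups did not overlap, and the difference was -0.49 ± 0.15 (SE, limma adjusted p = 0.419), with -0.32 ± 0.15 in titled GFP+ (adjusted p = 0.647). With that pool it was -0.37 ± 0.15 in titled GFP- and -0.28 ± 0.15 in titled GFP+ (adjusted p = 0.748 and 1.00). Cep89, a distal appendage protein, was 0.50 ± 0.19 in titled GFP+ and 0.38 ± 0.19 in titled GFP- (adjusted p = 0.532 and 0.687). Cep162, which marks the axoneme's base for the transition zone, was 0.43 ± 0.16 in titled GFP- (adjusted p = 0.521), and Bbs12 0.44 ± 0.17 in titled GFP+ (adjusted p = 0.532). With the pool, Cep89 was 0.34 ± 0.19 and 0.41 ± 0.19, Cep162 0.37 ± 0.15 and Bbs12 0.36 ± 0.17 in the same fractions (adjusted p from 0.742 to 1.00).

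Members that did not overlap between treatments were few. In titled GFP+ without vehicle pool 3, 4 were higher with odor (Bbs12, Cep112, Cep131 and Cep89), against 4.27% of all genes, and 2 were lower (Cep43 and Cep85), against 3.45%. In titled GFP- without that pool 4 were higher (Cep162, Cep192, Cep350 and Ift81), against 4.27%, and 3 lower (Cep43, Cep44 and Ift46), against 3.83%. With all 16 arrays 3 were higher and 0 lower in titled GFP+ (1.4% and 1.47% of all genes), and 2 higher and 1 lower in titled GFP- (2.28% and 1.89%).

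The difference of fraction differences, odor minus vehicle pools, passed in limma for 0 of 59 members on all 16 arrays and on the 14. Of all genes 0.00513% and 0.0103% passed. At an unadjusted limma p under 0.05 the members numbered 0 and 1. Ift88 had the smallest p on the 14 arrays, at 0.50 ± 0.21 (SE, adjusted p = 1.00), and was 0.31 ± 0.21 on all 16. The members' median was 0.04 on the 14 arrays and -0.04 on all 16. Its values were 12.03, 11.92, 12.19 and 12.04 in odor titled GFP+, against 11.84, 11.96, 11.93 and 11.93 in odor titled GFP-. In vehicle they were 11.46, 11.76, 12.14 and 11.94 titled GFP+, against 12.10, 11.87, 11.77 and 12.29 titled GFP-. Fractions overlapped in both treatments. The calls that Cep164 had in odor and Cep44 in vehicle are thus not shown to differ between treatments: the difference of their fraction differences was -0.18 and 0.41 without vehicle pool 3, with an SE of 0.19 and 0.27 (adjusted p = 1.00 each).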

How the data were processed

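The authors deposited log2 values for 16 arrays in 1 table. The submitters' processing notes name Affymetrix Expression Console; its version, summarization and genome build were not given in the sources used here. Of 28846 probe sets, 6640 were controls, of which 5222 negative, 19572 had 1 gene symbol in the platform annotation, 0 had several and 2634 had none. The probe set with the highest mean over 16 arrays stood for each gene, which left 19505 genes; all 59 members had a single probe set. No value was rescaled or filtered.

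Samples were grouped by title. A model with 4 group means was fitted to all genes in limma 3.58.1 (R 4.3.3; lmFit and eBayes, two-sided) on 16 arrays and on 14 without vehicle pool 3, with Benjamini-Hochberg adjustment over all 19505 genes at 0.05. The steps were tested on simulated data with independent noise, which held no reversed pool and no shared mice. That test does not bear on how the calls depend on vehicle pool 3. Arrays have no read depth; their number limits the precision. The members, lists and roles were chosen with earlier results of these data known. The rule for naming members took those called, the 3 of smallest p in each comparison, the extremes of level and spread, and outlying libraries; other members with values, such as Cep250, Ift81, Bbs7, Cep63, Cep76 and Cep350, were chosen after their values were seen. The 2 libraries of a pool share mice per the labels; correlations of their deviations ran from 0.127 to 0.253 in odor pools and from -0.754 to -0.0645 in vehicle pools on 16 arrays, and from -0.0221 to 0.287 in vehicle pools on 14. Alternatives were other scalings, a filter, probe set means, a variance trend, array weights, blocks and leaving out each library.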

Additional observations from a re-analysis of the deposited data

Results flagged for a closer look

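In 6 of 108 groups of 4 libraries tested for the 27 named members, 1 library stood apart from the others by Dixon's test; chance gives about 1 in 20 groups. Cep85 was 10.49 in odor replicate 3 titled GFP+ (median of the others 11.05) and 10.75 in vehicle replicate 3 titled GFP+ (11.32). Cep89 was 10.66 in odor replicate 1 titled GFP+ (10.92). Ift20 was 12.50 in vehicle replicate 1 titled GFP+ (13.99). Ift46 was 12.89 in vehicle replicate 3 titled GFP- (12.53), and Ift57 was 12.78 in odor replicate 4 titled GFP- (12.40).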

How the results depend on the processing

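Calls among the 59 members depended most on scaling. On all 16 arrays the fraction comparison in odor went from 0 calls to 15 (all lower) with arrays centred on their medians, 2 with quantile normalization, 1 with genes under the negative control median left out and 2 with array weights. Leaving out a library gave 0 to 1 in odor and 0 to 1 in vehicle. On 14 arrays the 2 calls in odor became 28 (all lower) with median centring, 3 with quantile normalization, 1 with the filter, 1 with array weights, 3 with the pool of mice as a replicate block, and 1 to 3 without a library. The 2 calls in vehicle became 36 (35 lower, 1 higher) with median centring, 4 with quantile normalization, 1 with the filter, 1 with a variance trend, and 1 to 2 without a library. Calls over all 19505 genes moved too. On all 16 arrays odor gave 5741 with median centring, 1528 with quantile normalization and 2727 with array weights, against 1359 in the main fit. The filter left 11897 genes and 1234 calls. On 14 arrays median centring gave 10078 in odor and 8397 in vehicle, against 2570 and 2180. Quantile normalization gave 3087 and 2656, array weights 2797 and 2586, and the filter 2018 and 1774 of 11893 genes. Median centring moved the median of all genes to -0.43 in odor and -0.46 in vehicle, and the members' to -0.49 and -0.57 (14 arrays). Centring on genes above the 95th percentile of the negative controls, chosen after seeing the data, moved the members' medians to -0.07 and -0.17, against -0.02 and -0.06 over all genes, and gave 0 and 0 calls on 16 arrays and 2 and 2 on 14. With the replicate block the vehicle count was 2 on 14 arrays, and 0 on 16; replicate numbers do not pair odor with vehicle pools, and with them as a block the treatment comparisons gave 0 calls. Those comparisons and the interaction gave 0 calls under each alternative run. Single genes: the Cep164 call in odor (14 arrays) held under each alternative run. The Cep55 call in vehicle held under each of the 21 alternatives that kept the gene. The filter of genes under the negative control median leaves Cep55 out. The Cep55 call in odor was lost with median centring (0.22, limma adjusted p = 0.257) and array weights (adjusted p = 0.0502). The Cep44 call in vehicle was lost with a trend (limma adjusted p = 0.0575) and array weights (adjusted p = 0.0811). None of the 30 single-gene results recomputed changed sign. Group medians near 0 did: the members' median in the interaction was 0.04 on 14 arrays and -0.04 on 16, and that of odor in titled GFP+ was 0.00 on 16 arrays and -0.06 with median centring. Signal over background limits Cep55 and Bbs12, whose means lay under the median of the negative controls. It also limits Cep164 (mean 7.26 over 16 libraries), Cep44 (7.87), Bbs10 (6.31) and Cep250 (9.32), which lay under the mark of clear signal (9.79).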
